A study of Mus musculus with 3 samples.

Results

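The genes of oxidative phosphorylation were described in single cells of mouse glomeruli, by the genome that encodes them and by the complex they belong to. Members were taken by gene symbol. They were the protein-coding genes of the mitochondrial genome (mt-Nd, mt-Co, mt-Cytb and mt-Atp) and the nuclear genes named Nduf, Cox4 to Cox8, Uqcr and Atp5. The rule returned 94 of the 32285 genes in the tables, and no measured value entered it. Of these, 13 are encoded by mitochondrial DNA and 81 by nuclear genes on 19 chromosomes. Complex I held 7 mitochondrial and 36 nuclear members, complex III 1 and 8, complex IV 3 and 20, and complex V 2 and 17. Ndufa4 and Ndufa4l2, named for complex I, were placed with complex IV, where the NDUFA4 protein is found. Complex II carries none of these names and was described from a separate list.

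The study sequenced 3 libraries of isolated glomeruli, 1 per group, to ask how mesenchymal stem cells of human umbilical cord (hUC-MSCs) act on lupus nephritis. The first came from blank control mice, whose strain is not given for this experiment. The second came from untreated MRL/lpr mice, which carry the Fas-lpr mutation, accumulate lymphocytes and develop a lupus-like nephritis. The third came from MRL/lpr mice that had received hUC-MSCs into a vein. The MRL/lpr mice of the study were female, were bought at 6 to 8 weeks of age and were taken as nephritic at about 16 weeks, and treated mice were compared with untreated ones in single cells at 21 days. Each group has 1 library, so no difference between libraries could be tested, and the number of mice behind each library is not given. Intervals below are 95% intervals for counting error only, and group, library, animal, strain and preparation cannot be told apart.

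Oxidative phosphorylation is the last stage of respiration. Complexes I and II pass electrons to ubiquinone, complex III passes them to cytochrome c, and complex IV passes them to oxygen. Complexes I, III and IV pump protons across the inner mitochondrial membrane, and complex V, the ATP synthase, uses that gradient to make ATP. Both genomes supply subunits of each complex except complex II, so messenger RNA made inside the organelle and messenger RNA made in the nucleus must together give 1 enzyme. In the kidney, tubule cells that move large amounts of salt are known for dense mitochondria, whereas podocytes and glomerular endothelium have fewer.

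The 13 mitochondrial genes were counted from polyadenylated RNA of a compact genome in which some reading frames overlap. In the GENCODE annotation of GRCm38, the build also called mm10, mt-Atp8 (chromosome M, 7766 to 7969) and mt-Atp6 (7927 to 8607) share 43 bases. mt-Nd4l (9877 to 10173) and mt-Nd4 (10167 to 11544) share 7 bases, and each of these pairs lies on 1 transcript. How reads are divided within such a pair depends on the counting, so values for these genes are uncertain in that respect.

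Nuclear members are known targets of the nuclear respiratory factor NRF1, of ETS family factors such as GABPA and of YY1. RefSeq promoter windows of 300 bases, most of each upstream of the start of the gene (GRCm38.p6), were found for 64 of the 81 nuclear members. The NRF1 letters, spelled in capitals in the Ndufa11 line below and the same on both strands, were in 5 of the 64 windows (7.81%), against 0.977% of all 27025 windows. The ETS letters CCGGAAGT or their complement were in 5 (7.81%, against 4.0% of all windows) and the YY1 letters AAGATGGC or their complement in 8 (12.5% against 2.88%). The letters TCAAGGTCA of the estrogen-related receptors, or their complement, were in 1 window (1.56% against 0.407%). Neither a TATAAA box (12.5% against 14.2%) nor a CCAAT box (43.8% against 37.9%) was much more frequent than in all windows. The median GC content was 57.0% in the members' windows and 52.7% in all windows, and the comparison is not matched for it. These are matches of letters and not shown to be bound, and no test was made. The 3 stretches below are those with NRF1 or ETS letters within 120 bases upstream of both the RefSeq and the GENCODE start, shown 5′ to 3′ on the strand of the gene with these letters in capitals. Ndufa11 encodes a membrane subunit of complex I (chr17:56717642-56717761, plus strand, NRF1), and Uqcr11 (chr10:80406831-80406950, minus strand, ETS) and Uqcrh (chr4:116075072-116075191, minus strand, ETS) encode small subunits of complex III.
Ndufa11: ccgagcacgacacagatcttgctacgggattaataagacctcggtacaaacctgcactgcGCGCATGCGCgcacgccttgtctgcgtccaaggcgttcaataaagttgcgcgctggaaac
Uqcr11: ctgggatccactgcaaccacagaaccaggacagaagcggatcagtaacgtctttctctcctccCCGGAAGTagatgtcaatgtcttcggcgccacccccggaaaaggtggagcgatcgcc
Uqcrh: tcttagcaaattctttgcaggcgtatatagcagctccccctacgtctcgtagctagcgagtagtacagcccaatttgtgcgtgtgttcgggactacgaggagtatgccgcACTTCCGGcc

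Barcodes with at least 1000 unique molecular identifiers (UMIs) and 200 to 5000 genes were kept, 10709 in the control, 14704 in the MRL/lpr and 16506 in the treated library. Their median UMI counts were 4968, 3677 and 2688. Cells were placed in 15 classes by 8 marker genes per class, and 92.7%, 74.2% and 66.8% of the kept barcodes fell in a class. In classes with at least 20 cells no marker of another class stood among the 10 leading genes by fold. None of the own markers stood there in endothelial cells of any library, in MRL/lpr mesangial, control proximal tubule and treated dendritic cells. Pairs of libraries shared 38 to 61 barcode sequences. The RNA of empty droplets (barcodes with 1 to 100 UMIs) held 13.2% mitochondrial UMIs in the control library, 6.0% in MRL/lpr and 4.13% in the treated library. The level of a gene or of a sum of genes is given per 1000000 UMIs of a class (CPM) or as a percent of them.

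Nuclear members took the largest share of RNA in tubule cells, and the order of the classes was much the same in the 3 libraries. In cells of the thick limb and distal tubule they made up 109357 CPM in the control library, 112627 in MRL/lpr and 97920 in the treated library. In intercalated cells, which secrete acid or base in the collecting duct, the values were 95231 and 116705 in the control and MRL/lpr libraries, the treated library having 12 such cells and no value. Proximal tubule cells held 61134, 79589 and 79924 CPM and principal cells of the collecting duct 68106, 79135 and 72129. All glomerular classes lay below these. Podocytes, the filtering epithelium, held 38035, 44964 and 44017 CPM, mesangial cells 24154, 29797 and 32949, and endothelial cells 21156, 26519 and 28807. Podocytes were above endothelial cells by 1.8-fold in the control library (log2 ratio 0.85, interval 0.84 to 0.85), 1.7-fold in MRL/lpr (0.76, 0.76 to 0.77) and 1.53-fold in the treated library (0.61, 0.60 to 0.62). The lowest levels were in neutrophils, with 8812, 18517 and 17252 CPM, and in erythroid cells, with 2346, 5741 and 14707. In control these rest on 30 and 47 cells. Free RNA was estimated at 4.18%, 16.1% and 12.2% of neutrophil and 4.11%, 11.3% and 13.4% of erythroid UMIs. Empty droplets held 34692, 37377 and 31832 CPM of nuclear members in the 3 libraries. Free RNA is not subtracted from these levels.

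The podocyte excess did not extend to the mitochondrial genome. In the control library the 13 genes made up 28784 CPM in podocytes and 29566 in endothelial cells, a log2 ratio of -0.039 (-0.044 to -0.034). In MRL/lpr the ratio was -0.080 (-0.088 to -0.072), and in the treated library -0.31 (-0.33 to -0.29). UMIs of mitochondrial members per UMI of nuclear members were 0.76, 0.49 and 0.42 in podocytes, against 1.4, 0.88 and 0.79 in endothelial cells and 1.49, 1.02 and 0.75 in mesangial cells. Podocytes had the lowest such ratio among the glomerular classes in each library. With the free RNA of the droplets subtracted, the podocyte over endothelial log2 ratio of the mitochondrial sum became 0.21 in the control and 0.29 in the MRL/lpr library, so its direction depends on that step.

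**Figure D1:**
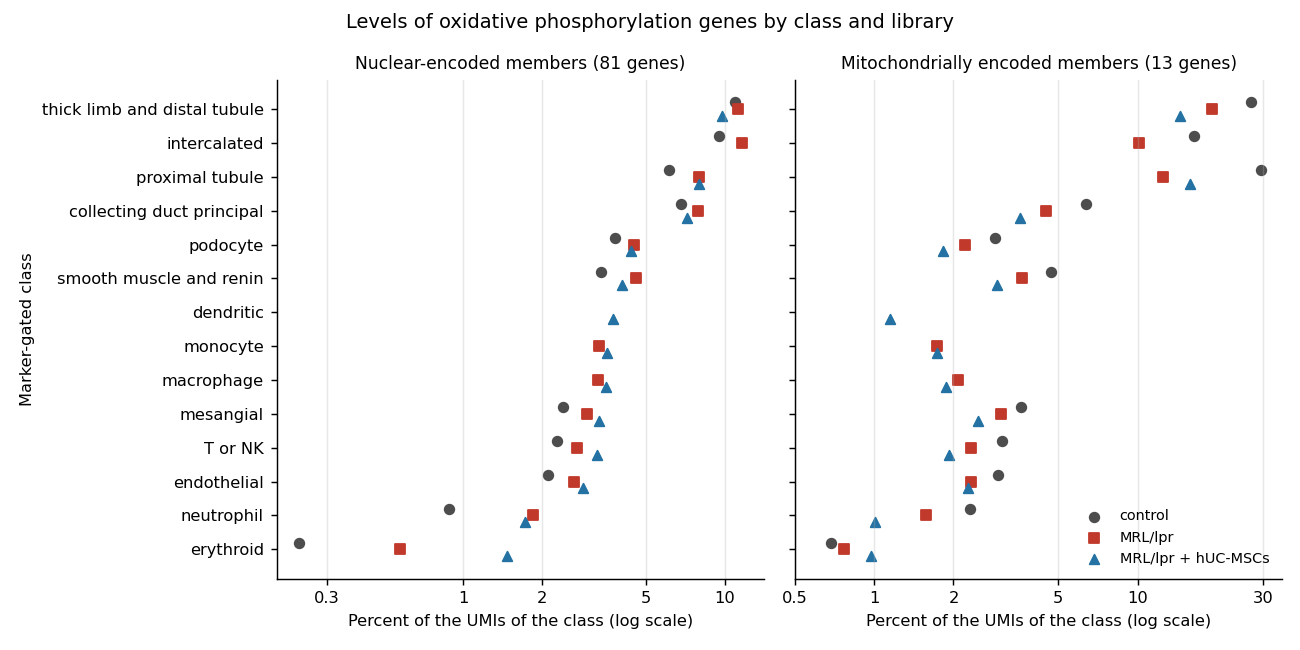
Percent of a class's UMIs (x axis, log scale) from the 81 nuclear members (left) and the 13 mitochondrial members (right) in each marker-gated class with at least 20 cells (y axis), 1 point per library. Tubule classes are at the top in both panels, and podocytes stand above endothelial cells on the left (3.8% against 2.12% in control) but not on the right (2.88% against 2.96%).

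In proximal tubule, thick limb and distal tubule cells the mitochondrial genes alone took a large share of all RNA. The median principal cell had less, 5.66% of its UMIs in control and 3.88% in MRL/lpr. Proximal tubule cells, which reabsorb most of the filtrate, held 293747 CPM of the 13 genes in the control library, 125273 in MRL/lpr and 157491 in the treated library. The thick limb and distal tubule held 270161, 191987 and 145324 CPM. Single proximal tubule cells varied widely. The median cell had 32.0% of its UMIs from these genes in the control library, with quartiles of 14.1% and 62.5%, against medians of 8.75% in MRL/lpr and 17.4% in the treated library. Across the classes with at least 50 cells, the mitochondrial CPM and the nuclear members per 1000000 nuclear UMIs followed each other with Spearman rho of 0.75 over 7 classes in control, 0.74 over 11 in MRL/lpr and 0.48 over 9 in the treated library. This is a description over classes that share a library and its free RNA.

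A limit on mitochondrial RNA, such as the 10% used in the study's methods, therefore acted on the members themselves and did so unevenly over classes. Above 10% lay 156 of 195 proximal tubule cells in control (80.0%, exact binomial interval 73.7% to 85.4%), 333 of 754 in MRL/lpr (44.2%, 40.6% to 47.8%) and 94 of 136 in the treated library (69.1%, 60.6% to 76.8%). These intervals cover counting over the cells of 1 library and not the spread between animals. In the thick limb and distal tubule 97.1%, 89.5% and 73.5% of cells were above it. Among endothelial cells the share was 0.642%, 1.1% and 0.323%. Proximal tubule cells at or under the limit held 87204 nuclear members' UMIs per 1000000 nuclear UMIs in control, and those over it 86315. The values were 90755 and 91351 in MRL/lpr, and 101827 and 88277 in the treated library, where 42 cells lay at or under the limit. In proximal tubule cells the sides were close in the first pair of libraries and apart in the treated one. This did not hold in every class. Control endothelial cells held 21723 at or under the limit and 37390 over it, on 39 cells over. Control podocytes held 39174 and 35970, on 23 cells over. In the thick limb and distal tubule the values were 117226 and 141586 in MRL/lpr, on 16 and 136 cells. They were 92495 and 127717 in the treated library, on 13 and 36 cells. In control only 2 such cells lay at or under the limit. Principal cells of MRL/lpr held 82858 and 82961, on 14 cells over.

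**Figure D2:**
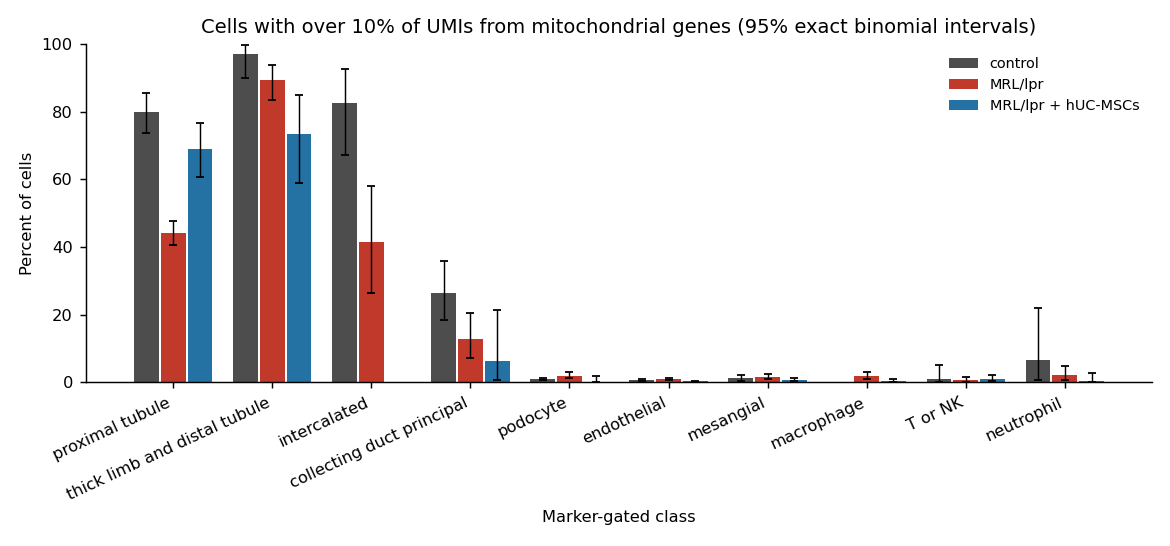
Percent of cells (y axis) with over 10% of UMIs from mitochondrial genes in each class (x axis), 1 bar per library, with exact 95% binomial intervals. The limit takes 44.2% to 80.0% of proximal tubule cells and 73.5% to 97.1% of thick limb and distal tubule cells, whereas endothelial, mesangial and podocyte bars stay at or under 2.03%.

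The MRL/lpr library was then set against the control library within each class, and the summed UMIs of the nuclear and the mitochondrial members had ratios of opposite sign. In endothelial cells the nuclear members were 1.25-fold higher in MRL/lpr (log2 ratio 0.33, 0.32 to 0.33) and the mitochondrial members lower (-0.34, -0.35 to -0.34). In mesangial cells, the contractile cells between the capillaries, the log2 ratios were 0.30 (0.29 to 0.31) and -0.25 (-0.26 to -0.24). In podocytes they were 0.24 (0.24 to 0.25) and -0.38 (-0.39 to -0.38). Proximal tubule cells showed 0.38 (0.37 to 0.39) for the nuclear and -1.23 (-1.23 to -1.22) for the mitochondrial members. The same signs were found in the thick limb and distal tubule (0.043 and -0.49), principal cells (0.22 and -0.50) and T or NK cells (0.25 and -0.39), which makes all 7 classes with at least 50 cells in both libraries. Scaled to nuclear UMIs alone, a scaling added for these classes after the values were seen, the nuclear ratio of the thick limb and distal tubule turned to -0.10 (-0.12 to -0.091), while those of principal and T or NK cells were 0.19 and 0.24.

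Other RNA moved with this split in the same classes. Malat1, a long nuclear RNA, was lower in MRL/lpr in each of the 7 classes, with log2 ratios from -1.42 in principal cells to -0.91 in T or NK cells. Cytosolic ribosomal proteins, a list added after the values were seen, had ratios above 0 in each, from 0.135 in T or NK cells to 0.39 in mesangial and endothelial cells. Single genes of the list went both ways past 1.5-fold. In endothelial cells 25 of 93 were higher and 3 lower (21.2% and 11.6% of all genes), and in mesangial cells 23 of 89 and 4 (16.2% and 15.5%). In endothelial cells the nuclear members' 0.33 stood beside 0.39 for the ribosomal proteins. Free RNA was estimated at 7.79% of endothelial UMIs in control and 21.2% in MRL/lpr, and at 4.22% and 13% in podocytes. The summed ratios of glomerular and proximal tubule cells with free RNA subtracted are given in the last section. The part of these shifts in the result was otherwise not tested.

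The nuclear excess was spread thinly over many members and rarely passed 1.5-fold. In endothelial cells 77 of the 81 nuclear members had at least 50 UMIs over both libraries. Their median log2 ratio was 0.28, against 0.06 for all genes tested. Of the 77, 8 were more than 1.5-fold higher (21.2% of all genes tested were) and none was lower past that fold (11.6% of all genes), while 1 was lower past 1.5-fold relative to the median of all genes. The 8 include Ndufa4l2 and Cox7a1, whose endothelial levels are at or near what free RNA alone would give. In mesangial cells the median was 0.22 against -0.04, with 8 members higher, Cox7a1 near background among them, and 1 lower (all genes 16.2% and 15.5%). In podocytes it was 0.18 against -0.06, with 6 higher, Ndufa4l2 at background among them, and 1 lower (all genes 16% and 14.9%). The members called were thus fewer than the background share in the glomerular classes, although their medians were above those of all genes. A call takes no account of counting error, and the genes tested reach down to 50 UMIs. The shares are therefore not matched for abundance. In proximal tubule cells the median of 75 members was 0.40 against 0.41 for all genes, with 14 higher and 1 lower (35.8% and 2.96%), so the medians were close while the share of members called higher was below that of all genes. In the thick limb and distal tubule 75 members had a median of 0.0038 against 0.24, with 2 higher and 1 lower (24.1% and 3.82%). In principal cells the median of 74 was 0.19 against 0.015, with 3 higher and 1 lower (14.6% and 11.3%), and in T or NK cells that of 73 was 0.26 against -0.055, with 10 higher and 5 lower (16.9% and 18.1%).

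The proximal tubule result, like that of the thick limb, changed with the way counts were scaled. Scaled to nuclear UMIs alone, the nuclear log2 ratio there was 0.072 in place of 0.38. Under the gene and mitochondrial limits of the methods, without their ribosomal limit, 27 control cells were left and it was -0.10, and the mitochondrial ratio was -0.30 in place of -1.23. These limits were changed together, so their parts cannot be told apart. The mitochondrial limit also removes cells by the quantity that the mitochondrial ratio compares, so it is not an independent check of that ratio. For MRL/lpr over control the glomerular ratios kept their sign under each of the 6 alternatives tried.

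**Figure D3:**
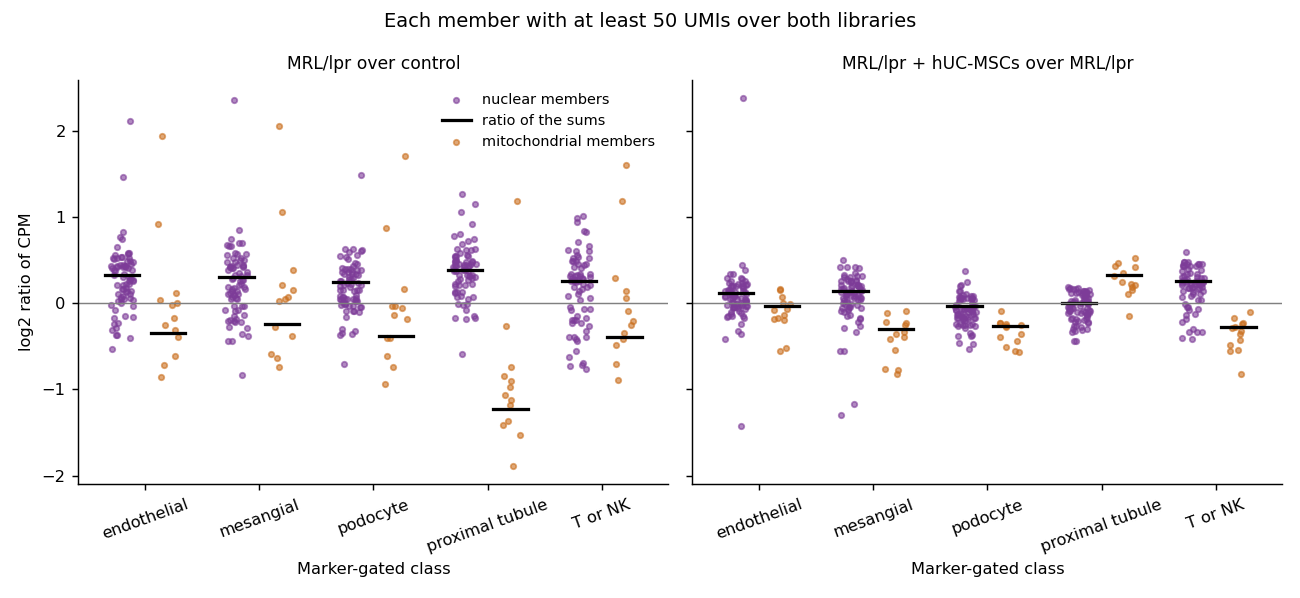
log2 ratio of CPM (y axis) for each member with at least 50 UMIs over both libraries (points) in 5 classes (x axis), MRL/lpr over control on the left and treated over MRL/lpr on the right, with the ratio of the summed members as a black line. On the left the nuclear sums lie between 0.24 and 0.38 and the mitochondrial sums between -1.23 and -0.25, and on the right the nuclear sums lie between -0.031 and 0.26, the highest in T or NK cells.

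By complex, the nuclear sums in MRL/lpr were above control in the 3 glomerular classes. Endothelial nuclear members of complex I, the NADH dehydrogenase, had a summed log2 ratio of 0.23, those of complex III 0.32, of complex IV, cytochrome c oxidase, 0.35 and of complex V 0.42. In mesangial cells the values were 0.23, 0.32, 0.32 and 0.37, and in podocytes 0.18, 0.25, 0.29 and 0.26. The order of the complexes was not tested, and by the median over members complex IV (0.42) stood above complex V (0.34) in endothelial cells. Among the mitochondrial sums by complex, complex III, which is mt-Cytb alone, was lowest, at -0.71, -0.64 and -0.74 in the 3 classes. The other complexes are sums over several genes, and the lowest single mitochondrial gene stood at -0.86, -0.74 and -0.94. The mitochondrial pair of complex V stood at -0.12, 0.093 and 0.0041.

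Members that differed alike in every class were counted over the 73 nuclear members with enough UMIs in all 7. In MRL/lpr 29 of the 73 were higher than in control in each class, against 537 of the 2758 genes tested in all 7 (19.5%). Lower in each class were 6 of the 73, against 158 of the 2758 (5.73%). The genes are not matched for abundance, and counting error can change the sign of a gene with few UMIs. Atp5h, the d subunit of the stalk of ATP synthase, was among the highest in 6 classes. It held 465 CPM in control endothelial cells and 826 in MRL/lpr (log2 ratio 0.83, 0.80 to 0.86), with 431 and 778 CPM in mesangial cells and 693 and 1068 in podocytes. In proximal tubule cells its log2 ratio was 1.26 (1.17 to 1.36). Over the classes the Atp5h ratio ran from 0.53 to 1.26.

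Ndufb3, an accessory subunit of complex I, was higher in all 7 classes, past 1.5-fold in 5 (median log2 ratio 0.61). Its endothelial levels were 155 CPM in control and 216 in MRL/lpr, and its podocyte levels 271 and 408. Cox7a2, the broadly expressed form of subunit VIIa of complex IV, was also higher in each class, with 626 and 818 CPM in endothelial cells.

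The 6 of 73 nuclear members that were lower in every class, beside 5.73% of all genes, were Cox4i1, Cox6a1, Ndufa3, Ndufa6, Uqcrc1 and Atp5o. Cox4i1, the common form of subunit IV of cytochrome c oxidase, went from 1000 to 782 CPM in podocytes (-0.36, -0.40 to -0.31), from 725 to 564 in mesangial cells and from 709 to 638 in endothelial cells. Ndufa6, an accessory subunit of complex I, went from 592 to 472 CPM in podocytes and from 280 to 211 in endothelial cells (-0.40, -0.45 to -0.36). Uqcrc1, a core subunit of complex III, had a median log2 ratio of -0.37 over the classes. These 6 were picked for being lower in every class. The nuclear sums of their complexes were above 0 in endothelial, mesangial and podocyte cells, so the contrast with those sums follows from the choice. None of the 6 passed 1.5-fold in all 7 classes.

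In podocytes the lowest ratio belonged to Ndufs1, the largest core subunit of complex I, at 60.6 CPM in control and 37.3 in MRL/lpr (-0.70, -0.90 to -0.51). In T or NK cells the same gene had 15 and 38 UMIs, at 39.9 and 23.4 CPM (-0.77, -1.67 to 0.20), an interval that includes no difference.

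Single mitochondrial genes went in both directions. In the MRL/lpr library mt-Atp8 was higher past 1.5-fold in each of the 7 classes, while mt-Co3 and mt-Cytb were lower past 1.5-fold in each. In mesangial cells 8 of the 13 had a ratio above 0 and their median was 0.044, although their sum was below 0. In endothelial and T or NK cells 5 of 13 were above 0 (medians -0.17 and -0.20), in podocytes and principal cells 3 (-0.14 and -0.23), in the thick limb and distal tubule 2 (-0.55) and in proximal tubule cells 1 (-1.07). Medians of all genes tested were 0.06 in endothelial, -0.04 in mesangial, -0.06 in podocyte and -0.055 in T or NK cells. In principal, thick limb and distal tubule, and proximal tubule cells they were 0.015, 0.24 and 0.41. In endothelial, mesangial and podocyte cells 2 of the 13 were higher past 1.5-fold (21.2%, 16.2% and 16% of all genes) and 3 lower (11.6%, 15.5% and 14.9%). In proximal tubule cells 1 was higher (35.8%) and 11 were lower (2.96%). Of the 2758 genes tested in all 7 classes, 1.41% were higher past 1.5-fold in each class and 0.218% lower. mt-Atp8, a small subunit of ATP synthase, held 56.4 CPM in control endothelial cells, 217 in MRL/lpr and 149 in the treated library. In podocytes it held 49.5, 162 and 110 CPM. mt-Nd4l, a subunit of complex I, held 394, 747 and 521 CPM in endothelial cells. mt-Co3, a core subunit of cytochrome c oxidase, held 6672 CPM in control endothelial cells, 3685 in MRL/lpr and 3883 in the treated library.

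As a share of the 13 genes' UMIs, several genes differed more between the control and the MRL/lpr libraries than between classes. mt-Atp8 was 0.19% of endothelial, 0.18% of mesangial, 0.17% of podocyte and 0.16% of proximal tubule mitochondrial UMIs in control. In MRL/lpr it was 0.93%, 0.87%, 0.73% and 0.83%, and in the treated library 0.65%, 0.63%, 0.60% and 0.60%. mt-Nd4l was 1.33%, 3.2% and 2.3% of endothelial mitochondrial UMIs in the 3 libraries. mt-Co3 was 22.6% in control endothelial cells, 15.8% in MRL/lpr and 17.1% in the treated library, and mt-Cytb 16.9%, 13.1% and 11.9%. mt-Co1 and mt-Co2, the catalytic core of complex IV with mt-Co3, went the other way, with 12.1%, 15.3% and 17.7% for mt-Co1 and 12.8%, 16% and 16.5% for mt-Co2.

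Empty droplets carried part of the same makeup. mt-Atp8 was 0.19% of their mitochondrial UMIs in control, 0.52% in MRL/lpr and 0.50% in the treated library, and mt-Co3 27.8%, 19.5% and 18.9%. The shift in makeup was therefore present outside cells too. Its bearing on strain, library and read assignment cannot be told apart with 1 library per group.

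**Figure D4:**
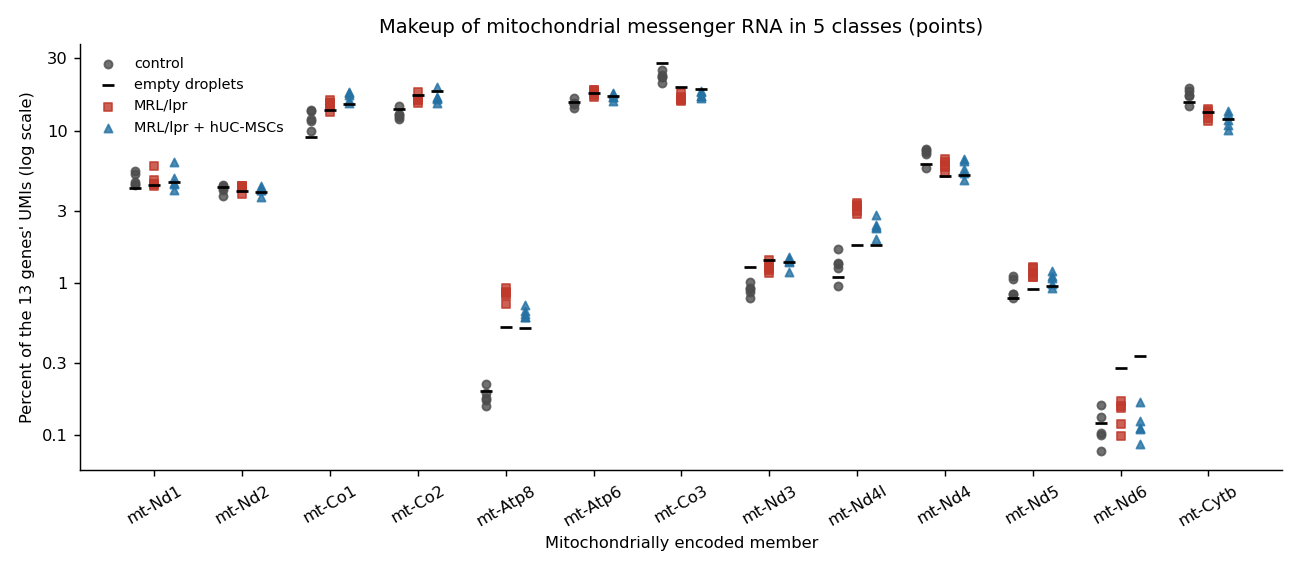
Percent of the 13 mitochondrial genes' UMIs (y axis, log scale) for each gene (x axis), with a point per class (endothelial, mesangial, podocyte, proximal tubule, T or NK) coloured by library and a black dash for the empty droplets of that library. The control points stand apart from both MRL/lpr libraries for mt-Atp8 (0.16% to 0.22% against 0.60% to 0.93%), mt-Nd4l and mt-Co3, in each of the 5 classes.

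The treated library was set against the untreated MRL/lpr library, which also serves the comparison above, so the values of both are given without relating them. Nuclear members had summed log2 ratios of 0.12 in endothelial cells (0.11 to 0.12), 0.15 in mesangial cells (0.14 to 0.15), -0.031 in podocytes (-0.044 to -0.018) and 0.0060 in proximal tubule cells (-0.0048 to 0.017). The endothelial ratio was 0.25 with free RNA subtracted, and the proximal tubule ratio 0.31 under the limits of the methods, on 21 cells. The medians over members were 0.08, 0.11, -0.08 and -0.04, against 0.11, 0.13, -0.01 and -0.16 for all genes tested. In endothelial cells 1 member, Cox6a2, was higher and 1, Cox7a1, lower past 1.5-fold (all genes 13% and 7.24%), both with an MRL/lpr level near or below what free RNA alone would give. In mesangial cells none was higher and 2, Cox4i2 and Cox7a1, were lower (10.8% and 7.71%). None was called in podocytes (8.22% and 8.4%) or in proximal tubule cells (2.75% and 14.8%). In T or NK cells the nuclear sum had a ratio of 0.26 (0.24 to 0.28), with a median of 0.23 against -0.16 for all genes and 1 of 73 members, Ndufa3, higher past 1.5-fold (5.59% of all genes) and none lower (18.8%). Macrophages had no nuclear member higher and 1 lower (6.06% and 13.3%), monocytes none higher and 2 lower (3.5% and 9.59%), and neutrophils 2 higher and 6 lower of 67 (4.08% and 13.3%).

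Mitochondrial members were lower in the treated library in mesangial cells (-0.29, -0.30 to -0.29), podocytes (-0.27, -0.29 to -0.25) and T or NK cells (-0.28, -0.30 to -0.25). All 13 genes were lower in each of these classes. In neutrophils 12 genes had enough UMIs, and all were lower, with a summed ratio of -0.65 (-0.69 to -0.60). Proximal tubule cells went the other way, with 12 of 13 genes higher and a sum of 0.33 (0.32 to 0.34). Medians of all genes tested were 0.13 in mesangial, -0.01 in podocyte, -0.16 in T or NK, -0.15 in neutrophil and -0.16 in proximal tubule cells. The share of all genes on the same side of 0 is not given here. Under the limits of the methods the podocyte ratio was -0.037 and the mesangial ratio -0.15, and the podocyte ratio was -0.13 with free RNA subtracted and -0.16 with a stricter marker gate. The proximal tubule sum was -0.057 under those limits, with 21 cells left. Those limits remove cells by the mitochondrial share itself. In endothelial cells the ratio was -0.037 (-0.043 to -0.032), and 4 alternatives turned it to between 0.033 and 0.40. Malat1 was higher in treated endothelial cells (0.44) and podocytes (0.32) and lower in mesangial cells (-0.064), and its part was not tested.

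Among the nuclear members at higher levels, Ndufa3, a small accessory subunit of complex I, was higher in the treated library in each of 8 classes (0.18 to 0.59). It went from 214 to 289 CPM in endothelial cells (0.44, 0.39 to 0.49), from 264 to 372 in mesangial cells (0.50, 0.41 to 0.58) and from 416 to 540 in podocytes (0.38, 0.25 to 0.49), without passing 1.5-fold in these classes. Over the 8 classes other than erythroid cells, 11 of 67 nuclear members were higher in each class, Ndufa3 and Cox4i1 among them (4.03% of the 2211 genes tested in all 8). Ndufb9, an accessory subunit of complex I, Uqcrfs1, the iron-sulfur protein of complex III, and mt-Atp8 were lower in each (6.92% of genes). These shares are not matched for abundance either. Atp5b, the catalytic beta subunit of ATP synthase, went from 284 to 213 CPM in endothelial cells (-0.41, -0.46 to -0.36). Erythroid cells showed 59 of 60 nuclear members higher past 1.5-fold, but 87.8% of all genes tested in that class were higher too.

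Several subunits exist in more than 1 form, and some of these differed widely between cell types. Ndufa4l2, a paralog of Ndufa4 that is induced by hypoxia in other settings, was found in contractile cells of the vessel wall and mesangium. In the smooth muscle and renin class, with 23 to 43 cells per library, it held 893 CPM in control, 831 in MRL/lpr and 783 in the treated library. In mesangial cells it held 257, 277 and 189 CPM, and the treated level was below the MRL/lpr level (-0.55, -0.65 to -0.46). Endothelial cells held 2.0, 8.7 and 7.9 CPM and podocytes 1.8, 5.0 and 3.1. Its class spread in control was at least 137-fold, with 0 UMIs in proximal tubule cells. The endothelial ratio of MRL/lpr over control (2.11, 1.70 to 2.54) rests on 215 and 64 UMIs. Free RNA alone would give endothelial cells 8.54 CPM in MRL/lpr and 4.16 in control, so these levels are at or near background and the ratio is not read as expression.

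Cox4i2, the alternative form of subunit IV, was still more restricted. The smooth muscle and renin class held 307, 546 and 248 CPM and mesangial cells 27.4, 15.3 and 6.8. Endothelial cells held 1.7, 1.2 and 0.5 CPM, podocytes at most 0.95, and macrophages at most 0.84. Free RNA alone would give endothelial cells 0.545, 1.18 and 0.542 CPM, so the MRL/lpr and treated levels are at background. In mesangial cells the Cox4i2 ratio was -0.84 (-1.20 to -0.47) for MRL/lpr over control and -1.17 (-1.67 to -0.69) for treated over MRL/lpr, on 149, 112 and 53 UMIs. Ndufa4, by contrast, was present in every class and was highest in intercalated cells and the thick limb and distal tubule (3928, 4122 and 3855 CPM in the latter).

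Cox7a1, the heart and muscle form of subunit VIIa, was highest in tubule cells. Intercalated cells held 691 CPM in control and 656 in MRL/lpr, principal cells 142, 215 and 124, and proximal tubule cells 69.2, 154 and 146. The proximal tubule ratio of MRL/lpr over control was 1.15 (0.86 to 1.45). Endothelial cells held 3.3, 9.2 and 3.4 CPM, where free RNA alone would give 2.57, 8.62 and 2.98 CPM, and the ratio of MRL/lpr over control turned to -0.11 with free RNA subtracted. Mesangial cells held 1.66, 8.5 and 3.47 CPM on 9, 62 and 27 UMIs, with ratios of 2.36 (1.34 to 3.55) for MRL/lpr over control and -1.29 (-2.0 to -0.62) for treated over MRL/lpr, where free RNA alone would give 2.01, 5.14 and 1.58 CPM. The control level is below that and the ratios rest on few UMIs, so neither the endothelial nor the mesangial ratios are read as expression. Podocytes held 14.2, 13.9 and 10.0 CPM.

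**Figure D5:**
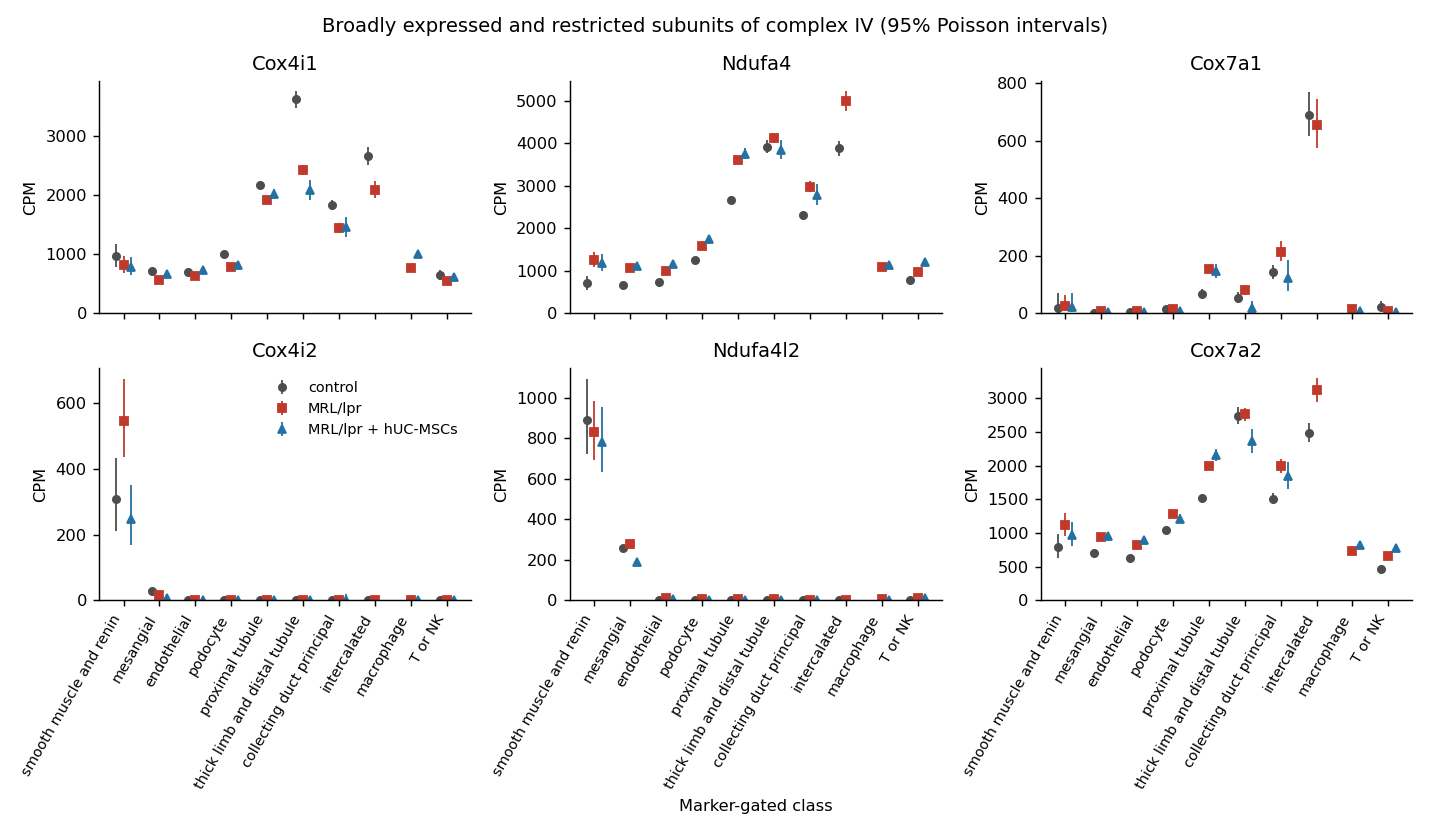
CPM (y axis, with 95% Poisson intervals) of paired forms of complex IV subunits in each class (x axis), by library. Cox4i2 and Ndufa4l2 are high in the smooth muscle and renin class (307 and 893 CPM in control), Cox7a1 is highest in intercalated cells (691 CPM in control), and Cox4i1, Ndufa4 and Cox7a2 are found in every class.

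Other forms were rare. Cox6a2, the muscle form of subunit VIa, was near 7.2 CPM in MRL/lpr and 7.1 in treated macrophages. Monocytes held 1.2 and 9.8 CPM in the same libraries. The endothelial Cox6a2 ratio for treated over MRL/lpr (2.38, 1.28 to 3.68) rests on 45 and 8 UMIs. The MRL/lpr level, 0.32 CPM, is below the 0.59 CPM that free RNA alone would give, so this ratio, which is the 1 endothelial member counted higher in the treated library, is not read as expression. Cox7b2 was found in podocytes at 3.5, 5.0 and 1.5 CPM, with 0 UMIs in control endothelial cells. The whole treated library held 2 Cox7b2 UMIs, below the floor of 3 counts, so the treated value is not read as a level. Cox8b, the muscle form of subunit VIII, held at most 4.4 CPM in proximal tubule cells, whereas Cox8a was present throughout. Cox8c was the 1 nuclear member under 50 UMIs in each library.

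The c ring of ATP synthase is encoded by 3 genes for the same mature protein. Atp5g1 was the most uneven of them, with 2624, 3007 and 2276 CPM in the thick limb and distal tubule, 697, 724 and 665 in podocytes and 283, 348 and 361 in endothelial cells. Atp5g2 held 464, 636 and 670 CPM in endothelial cells and 783, 979 and 896 in podocytes. Atp5g3 held 126, 214 and 208 CPM in endothelial cells. All 3 were higher in MRL/lpr than in control in each of the 7 classes. Cox6a1, the common form of subunit VIa, was lower in each, at 347 and 283 CPM in endothelial cells, and Cox7a2l, which helps to join complexes III and IV, was lower in endothelial cells (193 and 150 CPM) but higher in proximal tubule cells (133 and 232 CPM).

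For MRL/lpr over control, the nuclear members' medians of 0.28, 0.22, 0.18 and 0.40 in endothelial, mesangial, podocyte and proximal tubule cells were set beside those of related lists. Complex II, succinate dehydrogenase, whose 4 genes are all nuclear, had median log2 ratios of -0.02, -0.01, -0.12 and 0.18 in the same order, with none called. A list of 6 related genes with names outside the rule had medians of -0.17, 0.036, -0.0032 and 0.28. It held Cycs (cytochrome c), Cyc1, Ndufab1, Dmac2l, Slc25a4 and Slc25a5, which are not all subunits of the chain. Assembly factors of the respiratory chain had -0.02, -0.11, 0.02 and 0.44, and mitochondrial ribosomal proteins, a list added after the values were seen, 0.05, 0.07, 0.09 and 0.29. The genes of mitochondrial transcription, RNA stability and genome copying had -0.21, -0.17, -0.29 and 0.38, with 5 of 21, 7 of 18, 5 of 21 and 0 of 19 lower past 1.5-fold (11.6%, 15.5%, 14.9% and 2.96% of all genes). The tricarboxylic acid cycle had 0.04, -0.12, -0.11 and 0.30, glycolysis -0.08, -0.10, 0.01 and 0.01, and regulators of mitochondrial biogenesis -0.07, -0.23, -0.04 and 0.26. Mitophagy, fission and fusion genes had -0.01, -0.35, -0.21 and 0.24. Fatty acid beta oxidation had medians of -0.20, -0.24, -0.39 and -0.01. In the glomerular classes 2, 3 and 5 of its 15 genes were lower past 1.5-fold (11.6%, 15.5% and 14.9% of all genes). The endothelial and mesangial counts are near those shares. Each of these medians stands beside 0.06, -0.04, -0.06 and 0.41 for all genes tested. A list of genes induced by tissue dissociation stood at -0.50, -0.45, 1.20 and 1.58, which is beyond the members' own shift in each class, and its part was not tested.

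For treated over MRL/lpr the same lists had medians between -0.35 and 0.23 in the 4 classes, apart from the dissociation list and cytosolic ribosomal proteins (0.042, 0.36, -0.037 and -0.0069). The dissociation list stood at -1.34, -1.82, -1.26 and -0.14, with 10 of 12 genes lower past 1.5-fold in endothelial cells (7.24% of all genes). Complex II had 0.12, 0.21, 0.069 and -0.033, beside the nuclear members' medians of 0.08, 0.11, -0.08 and -0.04.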

How the data were processed

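The data were 10x single-cell tables of 3 libraries, 1 per group, from glomeruli released from minced kidney with collagenase V. The deposited counts are UMIs per gene and barcode, made by the authors with Cell Ranger (version 4 in the file headers, while the methods give another version) and STAR on mm10, per the submitters' processing notes, with no normalization and with empty droplets included. Total counts were 94903163 (control), 103319588 (MRL/lpr) and 90812138 (MRL/lpr + hUC-MSCs).

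Barcodes with at least 1000 UMIs and 200 to 5000 genes were kept, and neither the mitochondrial nor the ribosomal limit of the methods was applied. Doublets were kept in the main values and removed in an alternative (Scrublet in scanpy 1.11.5, 0.8% per 1000 barcodes, 917, 1730 and 2180 barcodes). A cell joined a class with at least 3 of its 8 markers detected and 2 more than of any other class. UMIs were summed over a class, levels needed 20 cells and comparisons 50 cells in both libraries. Summed counts were divided by all UMIs of the class, so a change in a large share moves every other level. Ratios carry exact conditional binomial intervals and levels exact Poisson intervals, at 95%, and cover counting error only. A gene counted as tested with 50 UMIs over both libraries and as called past 1.5-fold. The floor was 3 counts. Alternatives were a minimum of 2500 UMIs, doublets removed, free RNA subtracted, the gene and mitochondrial limits of the methods without their ribosomal limit, scaling to nuclear UMIs and a stricter marker gate, and for counts of genes a 2-fold threshold, 20 UMIs and centring on the median of all genes. The interval and the call rule were tested on Poisson counts drawn around summed class counts. The interval assumes such counts, so this test does not cover spread between cells or libraries. Python 3.11.15, numpy 2.4.6, scipy 1.17.1 and pandas 2.3.3 were used.

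Genes named in the text are the 13 mitochondrial members, the 3 highest and 3 lowest nuclear ratios of a class and comparison, the 5 members with the largest spread over classes in a library, the paired subunit forms, and members alike in every class, which were chosen after their values were seen. The erythroid class was left out of the counts over all classes. Ndufb1-ps, a member by its symbol, is annotated as a non-coding RNA in GENCODE M21. Nuclear copies and pseudogenes of members can take reads from them. The members and lists were chosen with earlier results of these data known. Protein sequences were not used here.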

Additional observations from a re-analysis of the deposited data

Results flagged for a closer look

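For treated over MRL/lpr the summed members moved in opposite directions in different classes, with intervals on either side of 0. Nuclear members had log2 ratios of 0.12 in endothelial and 0.15 in mesangial cells but -0.031 in podocytes. Mitochondrial members had 0.33 in proximal tubule cells but -0.037 in endothelial, -0.29 in mesangial and -0.27 in podocyte cells. The podocyte interval includes 0 with the stricter marker gate (-0.023 to 0.0034) and with free RNA subtracted (-0.023 to 0.0036), and the endothelial mitochondrial ratio turned positive under 4 alternatives. The proximal tubule mitochondrial ratio turned to -0.057 under the limits of the methods, which remove cells by the mitochondrial share that is compared. The difference between the classes was not tested, since each group has 1 library.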

How the results depend on the processing

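No paired analysis was possible because each group has 1 library. A log2 ratio counts as moved where it left the counting interval of the value in the report, and the cause of a move was not tested. Of 96 recomputed sums, 24 stayed, 66 moved and 6 reversed.
Nuclear sums in endothelial cells, for MRL/lpr over control, were 0.32 per 1000000 nuclear UMIs, 0.35 under the limits of the methods (at most 3000 genes and 10% mitochondrial UMIs, without their ribosomal limit), 0.32 with at least 2500 UMIs per barcode, 0.31 with at least 4 markers and a lead of 3 and 0.24 with free RNA subtracted. Nuclear sums in mesangial cells, for MRL/lpr over control, were 0.25 under the limits of the methods, 0.32 with at least 2500 UMIs per barcode and 0.29 with free RNA subtracted. Nuclear sums in podocyte cells, for MRL/lpr over control, were 0.23 per 1000000 nuclear UMIs, 0.27 with free RNA subtracted and 0.26 with doublets removed. Nuclear sums in proximal tubule cells, for MRL/lpr over control, were 0.072 per 1000000 nuclear UMIs, -0.096 under the limits of the methods, 0.36 with at least 4 markers and a lead of 3, 0.42 with free RNA subtracted and 0.39 with doublets removed. Mitochondrial sums in endothelial cells, for MRL/lpr over control, were -0.35 per 1000000 nuclear UMIs, -0.38 under the limits of the methods, -0.38 with at least 2500 UMIs per barcode, -0.40 with at least 4 markers and a lead of 3, -0.64 with free RNA subtracted and -0.38 with doublets removed. Mitochondrial sums in mesangial cells, for MRL/lpr over control, were -0.31 under the limits of the methods, -0.31 with at least 2500 UMIs per barcode, -0.31 with at least 4 markers and a lead of 3, -0.19 with free RNA subtracted and -0.26 with doublets removed. Mitochondrial sums in podocyte cells, for MRL/lpr over control, were -0.39 per 1000000 nuclear UMIs, -0.45 under the limits of the methods, -0.43 with at least 2500 UMIs per barcode, -0.49 with at least 4 markers and a lead of 3, -0.56 with free RNA subtracted and -0.41 with doublets removed. Mitochondrial sums in proximal tubule cells, for MRL/lpr over control, were -1.54 per 1000000 nuclear UMIs, -0.30 under the limits of the methods, -1.24 with at least 2500 UMIs per barcode, -1.19 with at least 4 markers and a lead of 3, -1.19 with free RNA subtracted and -1.22 with doublets removed. Nuclear sums in endothelial cells, for treated over MRL/lpr, were 0.11 under the limits of the methods, 0.13 with at least 2500 UMIs per barcode, 0.15 with at least 4 markers and a lead of 3, 0.25 with free RNA subtracted and 0.13 with doublets removed. Nuclear sums in mesangial cells, for treated over MRL/lpr, were 0.14 per 1000000 nuclear UMIs, 0.13 under the limits of the methods, 0.16 with at least 2500 UMIs per barcode, 0.16 with at least 4 markers and a lead of 3 and 0.21 with free RNA subtracted. Nuclear sums in podocyte cells, for treated over MRL/lpr, were -0.0099 with at least 4 markers and a lead of 3 and -0.0099 with free RNA subtracted. Nuclear sums in proximal tubule cells, for treated over MRL/lpr, were 0.060 per 1000000 nuclear UMIs, 0.31 under the limits of the methods, -0.014 with at least 4 markers and a lead of 3 and -0.0068 with free RNA subtracted. Mitochondrial sums in endothelial cells, for treated over MRL/lpr, were 0.087 under the limits of the methods, -0.058 with at least 2500 UMIs per barcode, 0.033 with at least 4 markers and a lead of 3, 0.40 with free RNA subtracted and 0.039 with doublets removed. Mitochondrial sums in mesangial cells, for treated over MRL/lpr, were -0.15 under the limits of the methods, -0.23 with at least 4 markers and a lead of 3, -0.20 with free RNA subtracted and -0.26 with doublets removed. Mitochondrial sums in podocyte cells, for treated over MRL/lpr, were -0.037 under the limits of the methods, -0.24 with at least 2500 UMIs per barcode, -0.16 with at least 4 markers and a lead of 3 and -0.13 with free RNA subtracted. Mitochondrial sums in proximal tubule cells, for treated over MRL/lpr, were 0.38 per 1000000 nuclear UMIs, -0.057 under the limits of the methods, 0.30 with at least 2500 UMIs per barcode and 0.37 with at least 4 markers and a lead of 3.

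Cox7a1 in endothelial cells had -0.11 for MRL/lpr over control with free RNA subtracted. Under the limits of the methods, mt-Co1, mt-Co2, mt-Nd3 and mt-Nd5 in proximal tubule cells had 0.50, 0.10, 0.69 and 0.0038. Podocytes over endothelial cells had mitochondrial ratios of 0.21 (control) and 0.29 (MRL/lpr) with free RNA subtracted. In brackets are shares of all genes tested under the same setting. At 2-fold in place of 1.5-fold, MRL/lpr over control had 2, 1, 1 and 3 nuclear members higher in endothelial, mesangial, podocyte and proximal tubule cells (12.2%, 8.18%, 9.29% and 15.8%), in place of 8, 8, 6 and 14, and none lower (4.49%, 4.99%, 4.65% and 0.912%) in place of 1 each in the last 3. Those higher in the glomerular classes were Ndufa4l2 and Cox7a1, at or near background and not read as expression. Of the mitochondrial members, none was lower in the glomerular classes in place of 3 each, 7 in place of 11 were lower in proximal tubule cells, and 1 in place of 2 was higher in endothelial cells and in podocytes, beside the same shares. In proximal tubule cells, 3 nuclear members were higher and 2 lower relative to the median of all genes (16.1% and 10.9%), and 4 higher per 1000000 nuclear UMIs (19.4%). For treated over MRL/lpr with at least 20 UMIs per gene, 2 nuclear members were lower in endothelial, podocyte and proximal tubule cells each (8.97%, 11.7% and 18.4%), and relative to the median 4 were lower in mesangial cells (10.2%). On that scale 2 mitochondrial members were lower in endothelial cells (9.1%) and 3 higher in proximal tubule cells (5.75%), and at 2-fold none was lower in mesangial cells (3.85%) in place of 3.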
